A study of Sus scrofa with 2 samples.

Results

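Genes of homologous recombination and of the Fanconi anaemia pathway were examined for peaks of ZBTB16, a zinc finger transcription factor also called PLZF, in immature spermatogonia of the pig. The set comprised 49 genes taken from a named list, of which 48 had an entry among the 16509 protein-coding genes with a symbol in the RefSeq table for Sscrofa11.1. FANCE had no entry there and no peak row under that name, and it is not analysed here. The material was 1 group of 2 wild-type CUT&Tag libraries from pig testis cells, replicate 1 and replicate 2, with 100000 cells each. In CUT&Tag an antibody tethers a transposase near the bound protein, and the DNA fragments it cuts out are sequenced. The labels name no animal, age or culture, so the libraries may be technical repeats. Peaks do not measure RNA, so the labelled cell type could not be checked against its markers. The IgG control of the protocol was not analysed here, and signal from an unspecific antibody at open promoters was not tested.

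Homologous recombination repairs double-strand breaks by copying an intact sister or homologous DNA molecule. The ends are first resected to single strands, BRCA2 and other mediators then help the strand exchange protein coat them, and helicases and nucleases finally undo the joined molecules. The Fanconi pathway recognises DNA crosslinks at stalled forks, marks the FANCD2 and FANCI pair with ubiquitin and hands the cut DNA to recombination. Germ cells rely on both, since mouse mutants of several Fanconi genes lose germ cells and since meiosis uses much of the same machinery.

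Replicate 1 held 10273 peaks and replicate 2 held 7301, at a median of 16 and 14 fragments at the peak summit. Each peak carries a fold enrichment, the authors' linear ratio of the summit over the background of its own library. Promoter peaks are those the authors placed in their promoter class, which reaches up to 3 kb from the transcription start site (TSS). At the genes of the set, this class held peaks that spanned the TSS or lay upstream of it. Peaks of these genes that lay wholly downstream of the TSS were given to other classes, even at 31 bp from it. A gene is called bound below when it had a promoter peak in both libraries. Intervals on fragments and folds are exact 95% Poisson intervals of the summit fragments, with the background taken as known, and cover counting error only. The number of reads per library is unknown here.

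Ranked by the lower fold of the 2 libraries, MMS19, SWSAP1, BRCA1, FANCC, RAD52 and ATM led the members with a promoter peak in both. In all, 21 of 48 members were bound (43.8%, 95% Wilson interval 30.7 to 57.7), against 20.8% of all 16509 genes. Taken by itself, replicate 1 had promoter peaks at 31 members (64.6%, against 32.8% of all genes) and replicate 2 at 22 (45.8%, against 24.9%). No peak at all was assigned to 13 members (27.1%), against 49.3% of all genes. The members' share was thus above that of all genes in each library. No test of the list is given, because its members were chosen with earlier results known.

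**Figure D1:**
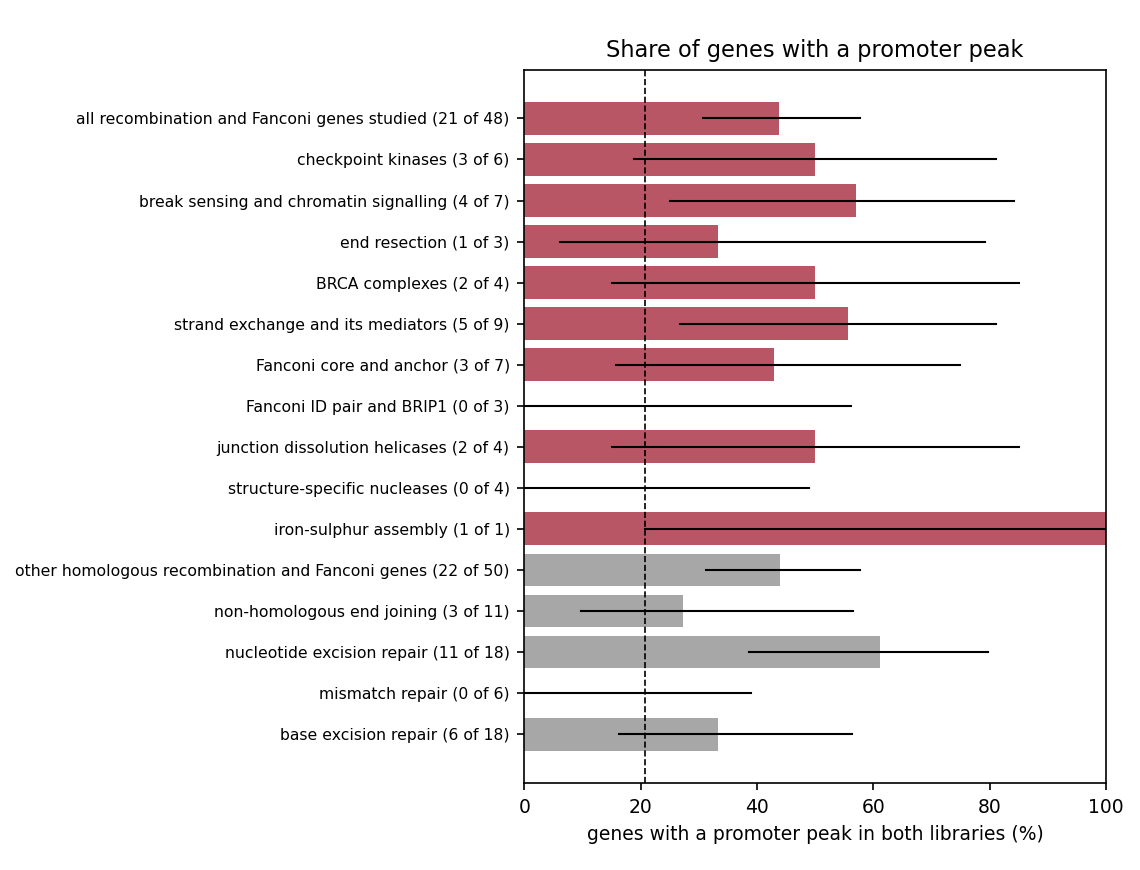
Percent of genes with a promoter peak in both libraries, by role of the members (red) and for other repair gene lists (grey), with 95% Wilson intervals as lines and the counts beside each name. The dashed line marks the 20.8% of all genes, and the members as a whole stand at 43.8%.

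Peak height at the bound members was close to that of bound genes in general. Taking for each gene the lower fold of the 2 libraries, the median was 5.16 over the 21 bound members and 5.13 over all 3439 bound genes. Their median summit fragments were 22 in replicate 1 and 16 in replicate 2, against 22 and 17 over all bound genes. MMS19 and SWSAP1 stood at ranks 9 and 18 of 3439 by the lower fold, BRCA1 followed at rank 383 and RAD51C came last of the members at rank 2649.

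**Figure D2:**
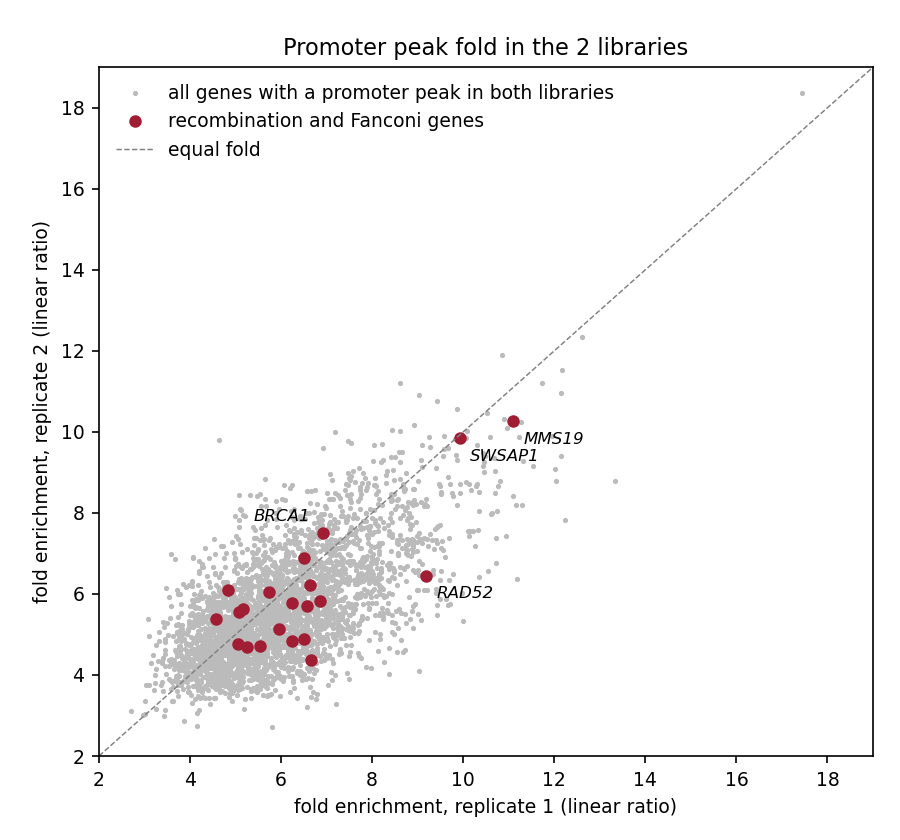
Fold enrichment of the strongest promoter peak in replicate 1 (x axis) and replicate 2 (y axis) for all 3439 bound genes (grey) and the 21 bound members (red), with equal folds on the dashed line. MMS19 and SWSAP1 lie at the upper end and the other members lie within the main cloud.

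Among the kinases and adaptors that signal damage, 3 of 6 genes were bound. ATM, the kinase activated by double-strand breaks, had a promoter peak of 6.64-fold in replicate 1 (29 fragments, interval 19.4 to 41.6) and 6.22-fold in replicate 2 (25 fragments, 16.2 to 36.9), on chromosome 9 at 36620000 to 36620925 in replicate 1. ATRIP, the partner that carries the ATR kinase to single-stranded DNA, had 6.49-fold and 4.88-fold, and CHEK2, the effector kinase below ATM, had 5.53-fold and 4.71-fold. The fold was the higher one in replicate 1 at these 3 genes, within overlapping intervals. CHEK1, the effector kinase below ATR, had a promoter peak in replicate 1 alone, at 4.28-fold from 12 fragments. TOPBP1, an activator of ATR, likewise had one in replicate 1 alone, at 4.50-fold from 11 fragments. ATR itself had overlapping peaks at its start in both libraries. In replicate 1 its peak began 31 bp downstream of the TSS and was classed as 5′ UTR (4.82-fold, 16 fragments), and in replicate 2 the peak spanned the TSS and was classed as promoter (4.07-fold, 10 fragments). ATR therefore fell outside the bound set by its class in 1 library, not for lack of a peak.

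Of the 7 genes that sense breaks and mark the surrounding chromatin, 4 were bound. RNF168, a ubiquitin ligase that marks histone H2A, had 5.74-fold in replicate 1 (22 fragments) and 6.05-fold in replicate 2 (19 fragments), and its summits lay 31 bp downstream and 1 bp upstream of the TSS. RNF8, the ligase that acts before it, had 5.24-fold and 4.70-fold. RAD50, the coiled-coil subunit of the MRE11 complex, had 5.95-fold from 19 fragments and 5.12-fold from 13. MDC1, the scaffold that binds phosphorylated H2AX, had 5.07-fold from 41 fragments and 5.56-fold from 38. MDC1 thus had more fragments than the median member at a lower fold, and its background was 7.29 and 6.01 fragments, against medians of 2.94 and 2.26 over all bound genes. A further MDC1 peak in replicate 1, of 3.02-fold and 24 fragments, was classed as 5′ UTR. TP53BP1, which limits resection, had a promoter peak in replicate 1 alone (5.14-fold, 16 fragments), and so had RAD18, a ubiquitin ligase of stalled forks (4.81-fold, 12 fragments). NBN, the MRE11 complex subunit that recruits ATM, had no assigned peak, and the nearest peak to either gene end lay 57.2 kb away in replicate 1 and 57.6 kb away in replicate 2.

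End resection was represented by 3 genes, and RBBP8 was the bound one. RBBP8, which encodes the resection factor CtIP, had 4.84-fold in replicate 1 (18 fragments) and 6.10-fold in replicate 2 (16 fragments). The long-range nucleases EXO1 and DNA2 had no assigned peak. The nearest peak to a gene end of EXO1 was 275 kb away in replicate 1 and 111 kb away in replicate 2. At DNA2 it was 43.6 kb away in replicate 1 and 2.80 kb away in replicate 2, where it was classed as 5′ UTR of RUFY2.

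BRCA1 and BARD1, which form a ubiquitin ligase heterodimer, were both bound. BRCA1 had 6.92-fold in replicate 1 (32 fragments, interval 21.9 to 45.2) and 7.49-fold in replicate 2 (30 fragments, 20.2 to 42.8), on chromosome 12 at 19788170 to 19788985 in replicate 1. Its summits in the libraries lay 8 bp apart, 341 and 349 bp downstream of the TSS assigned in replicate 1. BARD1 had 6.24-fold from 24 fragments in replicate 1 and 4.84-fold from 14 in replicate 2. BRCA2, a mediator of strand exchange, and PALB2, which links BRCA2 to BRCA1, had no peak under their own names. Each had peaks at its gene end in both libraries that the authors gave to a neighbour, as described below.

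Strand exchange genes held 5 bound members of 9. SWSAP1, a mediator that acts with a SWIM-domain partner, had 9.92-fold in replicate 1 (57 fragments, interval 43.2 to 73.9) and 9.85-fold in replicate 2 (40 fragments, 28.6 to 54.5), on chromosome 2 at 70059985 to 70060615 in replicate 1. The folds of SWSAP1 were nearly the same in both libraries. RAD52, a mediator of strand annealing, had 9.19-fold from 41 fragments (29.4 to 55.6) and 6.45-fold from 22 (13.8 to 33.3), on chromosome 5 at 68167544 to 68168387 in replicate 1. RAD51C, a mediator of strand exchange, had 6.65-fold from 22 fragments and 4.38-fold from 13, the largest ratio of folds between the libraries among the bound members (1.52). Its fold intervals, 4.28 to 9.93 and 2.48 to 7.27, overlapped. The motor proteins RAD54B and RAD54L, which help a strand invade the homologous duplex, were bound at 5.06-fold and 4.77-fold and at 4.58-fold and 5.37-fold. RAD54B rested on 12 and 11 fragments, the lowest counts among the bound members, and RNF8 shared the value of 11 in replicate 2.

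The related mediators were XRCC3, RAD51D, RAD51B and XRCC2. XRCC3, on an unplaced scaffold, had a promoter peak in replicate 1 (5.16-fold, 33 fragments) and an overlapping peak classed as 5′ UTR in replicate 2 (4.07-fold, 17 fragments). RAD51D had a 5′ UTR peak in replicate 2 alone, at 6.01-fold from 16 fragments, whose nearest edge was 134 bp downstream of the TSS. RAD51B and XRCC2 had no assigned peak. The nearest peaks to a gene end of XRCC2 lay 135 kb away in replicate 1 and 120 kb away in replicate 2.

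The Fanconi core complex and its anchor FANCM gave 3 bound genes of 7, namely FANCC, FANCF and FANCG. FANCC had 6.51-fold from 18 fragments in replicate 1 and 6.9-fold from 17 in replicate 2, on chromosome 10 at 26796486 to 26797005 in replicate 1, with summits 3 bp apart. FANCG had 6.58-fold from 25 fragments and 5.71-fold from 17, with the summit at the same base in both libraries, 315 bp upstream of the TSS. FANCF had 5.16-fold from 18 fragments and 5.63-fold from 15. These 3 core subunits showed similar folds in both libraries. FANCB, the X-linked core subunit, had 7.02-fold from 21 fragments (13.0 to 32.1) in replicate 1 and no assigned peak in replicate 2. The replicate 1 peak also covered the end of the protein-coding gene MOSPD2, 199 bp away. The replicate 1 fold of FANCB was the highest among the core complex genes in that library, although its interval, 4.47 to 10.6, included the folds of FANCC and FANCG. FANCA had a replicate 1 promoter peak of 3.95-fold from 11 fragments. FANCL, the ubiquitin ligase subunit, had a 5′ UTR peak in replicate 1 alone (4.05-fold, 10 fragments). It lay on chromosome 3 at 83337262 to 83337868, 55 bp downstream of the assigned TSS. That start was far inside the RefSeq gene, which spans 83136355 to 83436948. FANCM, a DNA translocase, had no assigned peak.

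FANCD2, FANCI and the helicase gene BRIP1 gave 0 bound genes of 3, which allows a share of up to 56.1% (95% Wilson) and lies near the 20.8% of all genes for so few. FANCI, a subunit of the ubiquitinated pair, had a promoter peak in replicate 1 alone, at 4.54-fold from 13 fragments. BRIP1, which binds BRCA1, also had one in replicate 1 alone, at 6.33-fold from 19 fragments (11.4 to 29.7). FANCD2, the other subunit of the pair, had no assigned peak, and the nearest peaks to its gene ends lay 6.79 kb away in replicate 1 and 7.01 kb away in replicate 2.

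BLM and WRN, the RecQ helicases mutated in Bloom and Werner syndromes, were bound. WRN had 6.86-fold from 30 fragments in replicate 1 and 5.83-fold from 17 in replicate 2. BLM had 6.25-fold from 20 fragments and 5.77-fold from 15, with summits 7 bp apart, 316 and 323 bp upstream of the TSS. A further replicate 1 peak in an exon of WRN, 32.1 kb downstream of the TSS, had 4.08-fold from 8 fragments. The BLM partners RMI1 and RMI2 were not bound under their own names. RMI2 had a single peak in replicate 1, classed as 3′ UTR, at 4.15-fold from 9 fragments. That peak, on chromosome 3 at 31783122 to 31783544, began 31.3 kb downstream of the assigned TSS. It lay outside the RefSeq gene, which spans 31807717 to 31814869.

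None of the 4 structure-specific nuclease genes was bound (0%, 95% Wilson upper limit 49%), which for so few genes lies near the 20.8% of all genes. MUS81, the catalytic subunit of a junction-cutting nuclease, had a promoter peak in replicate 1 alone, of 3.19-fold from 29 fragments on a background of 8.39 fragments. EME1, its partner, and GEN1, a Holliday junction resolvase, had no assigned peak, and neither had one within 1 kb of a gene end. The scaffold SLX4 had no assigned peak under its own name. MUS81 was the member with the lowest fold of all replicate 1 promoter peaks and the highest background.

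MMS19, which delivers iron-sulphur clusters to repair helicases and polymerases, had the strongest promoter peak of the set. It reached 11.1-fold in replicate 1 (68 fragments, interval 52.8 to 86.2) and 10.3-fold in replicate 2 (50 fragments, 37.1 to 65.9), on chromosome 14 at 108886475 to 108887342 in replicate 1. The fold intervals, 8.65 to 14 and 7.67 to 13.5, overlapped those of SWSAP1, 7.56 to 12.8 and 7.1 to 13.3. MMS19 is a general factor for iron-sulphur proteins and not a recombination enzyme.

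**Figure D3:**
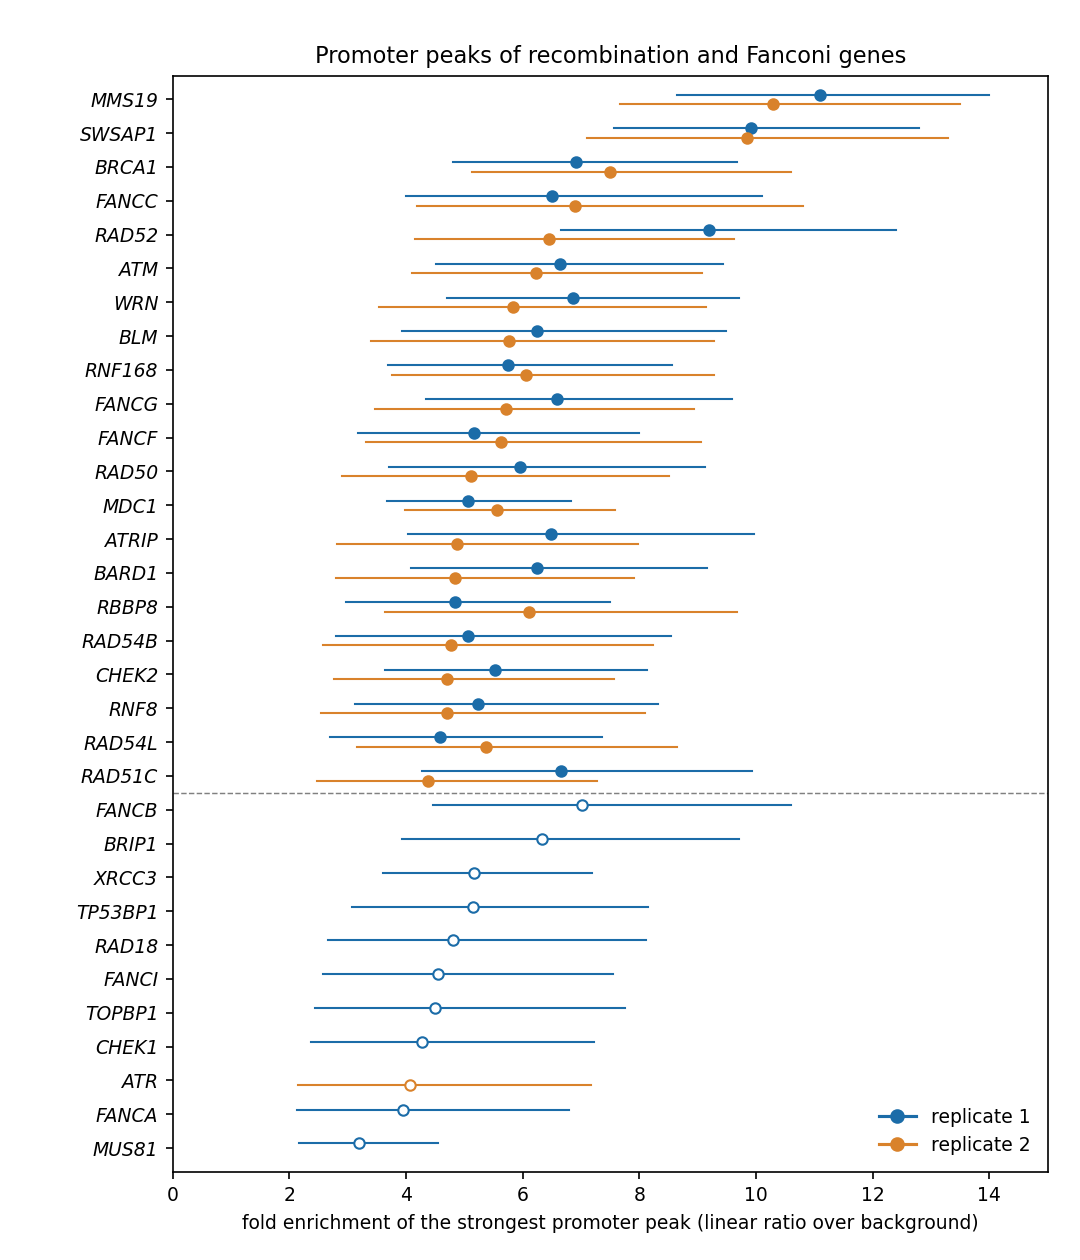
Fold enrichment of the strongest promoter peak of each member in replicate 1 (blue) and replicate 2 (orange), with 95% counting intervals as lines. Filled points above the dashed line are the 21 bound members, and open points below it are the 11 members with a promoter peak in 1 library, of which 10 had it in replicate 1.

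No bound member was called different between the libraries. At all 21 the promoter peaks of the libraries overlapped by at least 1 bp, as they did at 98.2% of all bound genes, and the fold intervals overlapped as well. Whether a gene's summit fragments were divided unevenly was tested with a two-sided exact binomial test against the overall share of 56.8% in replicate 1, with Benjamini-Hochberg adjustment over 3376 bound genes whose peaks overlapped. The test called 0% of these genes (0 genes, with 39 at an unadjusted p below 0.05), and 0 of the 21 members. The lowest unadjusted exact p of a member was 0.205. The 21 members together held 570 summit fragments in replicate 1 and 427 in replicate 2, a share of 57.2% in replicate 1. A gene must have a peak in both lists to enter, which removes the most unequal genes. In simulated splits with the same fragment totals, 100 genes were changed 3-fold and another 100 were changed 6-fold. The test called 52% of those changed 3-fold. So many changed genes make the adjusted threshold easier to reach, and genes were not selected on a peak in both lists. The 52% therefore does not give the power for a lone changed gene, which would be lower. A p above the threshold does not show that the libraries were equal at a gene.

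Members with a promoter peak in 1 library mostly rested on fewer fragments. The 10 members with such a peak in replicate 1 alone had 11 to 33 summit fragments with a median of 14.5, against 22 for the bound members, and folds of 3.19 to 7.02. Of the 31 members with a replicate 1 promoter peak, 21 had one in replicate 2 (67.7%), against 63.5% of all 5415 such genes. Of members whose replicate 1 peak had 14 fragments or fewer, 1 of 6 recurred, against 32.8% of all genes in that range. Of those with 15 to 24 fragments, 12 of 15 recurred, against 64.3%, and of those with 25 or more, 8 of 10 recurred, against 90.3%. The pair with 25 or more that did not recur was XRCC3, whose replicate 2 peak was classed as 5′ UTR, and MUS81. A missing promoter peak therefore means only that none was called in that class at this depth, and the reason was not tested.

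The promoter peaks of bound members sat across the start of the assigned transcript. The definition of bound favours this position, because member peaks wholly downstream of the TSS were not classed as promoter. That start was over 1 kb from both ends of the RefSeq gene at 4 of the 21 members, namely RAD52 (26.8 kb from the nearer end), RBBP8 (15.8 kb), MDC1 (2.22 kb) and FANCG (1.64 kb). The peaks spanned the TSS at 21 of 21 members in replicate 1 and at 20 of 21 in replicate 2, against 86.9% and 84.2% of all bound genes, and the RAD54L peak of replicate 2 ended 5 bp upstream of it. Summits lay within 200 bp of the TSS at 12 members in replicate 1 (57.1%) and at 10 in replicate 2 (47.6%), against 63.7% and 61.9% of all bound genes. They lay upstream at 10 members in replicate 1 (47.6%) and at 12 in replicate 2 (57.1%), against 60% and 59.2% of all bound genes. The summits of the libraries were a median of 68 bp apart, against 93 bp over all bound genes, and the gap was widest at RAD51C with 389 bp. In replicate 1 the RAD51C summit was 238 bp upstream of the TSS and in replicate 2 it was 151 bp downstream.

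**Figure D4:**
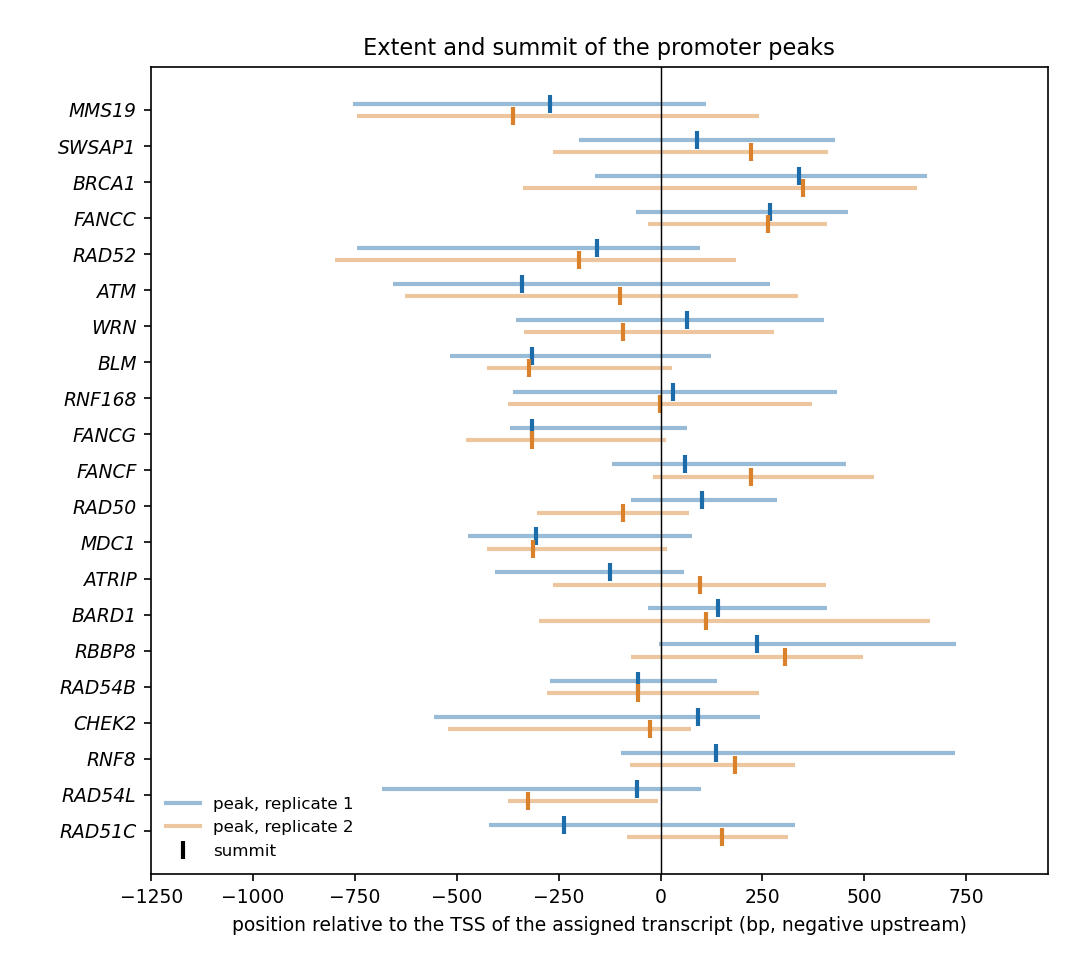
Extent (bars) and summit (ticks) of the strongest promoter peak of the 21 bound members in replicate 1 (blue) and replicate 2 (orange), in bp from the TSS of the transcript assigned in replicate 1, ordered by the lower fold. Summits fall on both sides of the TSS and at most 362 bp from it at every bound member.

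Several members without a peak of their own had peaks at a shared gene end. Each deposited peak is assigned to 1 gene, so where 2 genes start next to each other the peak counts for 1 of them. Of the 13 members with no assigned peak, 6 had a neighbour's peak no more than 1 kb from a gene end in at least 1 library. The same share over all genes with no assigned peak was not computed, so this count is not a trait of the members. The RefSeq table used here gives no strand, so these are ends of the gene and not necessarily its start.

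At PALB2, whose end is 75 bp from that of DCTN5, a peak covered both ends in both libraries and was assigned to DCTN5 (5.44-fold from 14 fragments and 3.94-fold from 9). At SLX4, whose end is 52 bp from that of DNASE1, a peak covering both ends was assigned to DNASE1 (4.42-fold and 5.14-fold, 15 fragments in each library). At RMI1, whose end is 90 bp from that of HNRNPK, a strong peak covering both ends was assigned to HNRNPK (9.25-fold from 43 fragments and 9.87-fold from 46). These 3 peaks thus touched a recombination gene without being counted for it. At BRCA2 the peaks lay 185 bp and 97 bp outside the gene end, in the 5′ UTR of ZAR1L, with 3.23-fold from 8 fragments in replicate 1 and 5.86-fold from 17 in replicate 2. Peaks of ZFYVE26 lay 997 and 992 bp from an end of RAD51B, and a replicate 1 peak of FKBP3 lay 927 bp from an end of FANCM. A neighbour's peak also lay near an end of 5 members that had peaks of their own. At RAD52 a promoter peak of ERC1 covered the gene end in both libraries (4.75-fold from 17 fragments and 6.88-fold from 21), which alone placed RAD52 near a gene end. At ATRIP a promoter peak of TREX1 lay at the gene end (4.12-fold from 18 fragments in replicate 1 and 4.19-fold from 17 in replicate 2). In replicate 1, peaks of VCP, XRN1 and CFL1 lay 925 bp from FANCG, 806 bp from ATR and 438 bp from MUS81. The remaining 7 members with no assigned peak, XRCC2, FANCD2, NBN, EXO1, DNA2, EME1 and GEN1, had none within that distance.

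**Figure D5:**
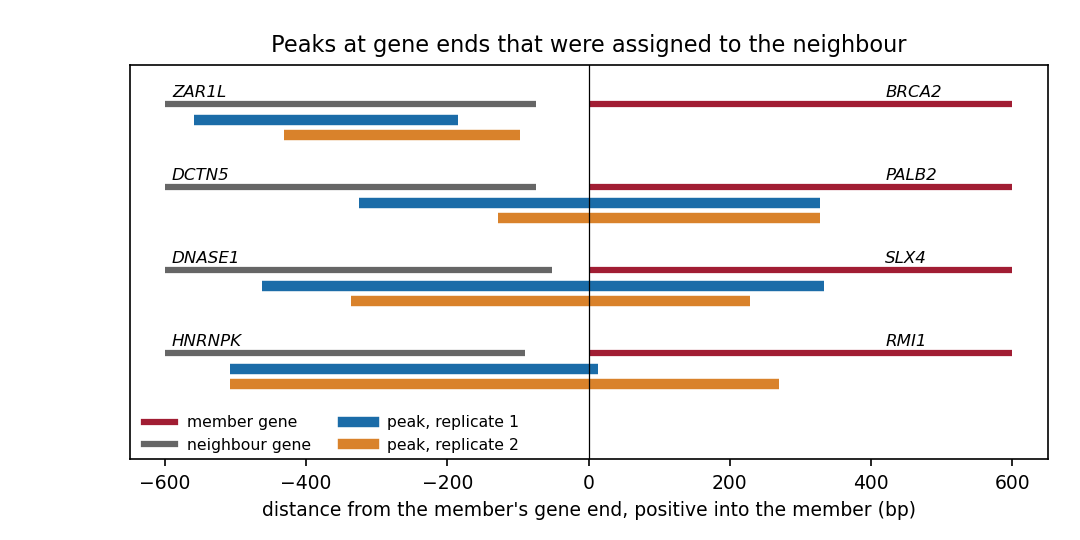
Peaks of replicate 1 (blue) and replicate 2 (orange) at a gene end of BRCA2, PALB2, SLX4 and RMI1, in bp from that end with positive values inside the member (red line) and the neighbouring gene in grey. The peaks cross the ends of PALB2, SLX4 and RMI1 and stop 185 and 97 bp short of BRCA2.

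Close neighbours were found at bound and other members. Counting any gene, 20 of the 47 members placed on chromosomes had another gene's end within 1 kb of their TSS, or of a gene end where no peak gave the TSS, and 17 had a protein-coding one. Of the 21 bound members, 8 had such a neighbour and 7 a protein-coding one. Members with a peak were searched at the TSS only and the others at both gene ends, so these counts are not measured alike. The same share over all genes was not computed. At 4 bound members the assigned peak covered the neighbour's end as well in both libraries. These were ATM (141 bp from LOC100627195), CHEK2 (110 bp from HSCB), RAD51C (48 bp from TEX14) and SWSAP1 (270 bp from the end of CCDC159). The peak did not cover the neighbour's end at BRCA1 (684 bp from the end of NBR1) and FANCF (735 bp, GAS2). The same held for RBBP8 (223 bp, LOC106510680) and WRN (482 bp, PURG). TEX14, which encodes a protein of the intercellular bridges between germ cells, thus shares the RAD51C peak. The TSS lay inside another gene at MMS19 (UBTD1, whose nearer end is 1053 bp away), BRCA1 (NBR1) and FANCF (GAS2). It also did so at SWSAP1 (CCDC159 and PLPPR2) and RAD50 (SLC22A5 and IL5). Which gene of such a pair or overlap a peak belongs to cannot be told apart by position here. When every peak within 1 kb of either gene end was counted whatever its assignment, 24 of 47 members had one in both libraries (51.1%), against 29.3% of 16316 placed genes.

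Other genes of the pathway, from a separate list, had a similar share. Of 50 further recombination and Fanconi genes, 22 were bound (44%, 95% Wilson interval 31.2 to 57.7), against 20.8% of all genes. FAN1, a nuclease recruited by ubiquitinated FANCD2, had 7.08-fold in replicate 1 and 8.96-fold in replicate 2, the highest lower fold of that list. The genes RPA1, RPA2 and RPA3, which encode the single-strand binding complex, were all bound at lower folds of 4.81, 5.02 and 6.10, and were named after their values were seen. Other complexes of the list were bound only in part. HUS1 was bound without RAD9A and RAD1, and UIMC1 and BABAM1 were bound without ABRAXAS1, BRCC3 and BABAM2. Of the list, 14 genes had no assigned peak, and ABRAXAS1, BRCC3, FAAP24 and FIGNL1 come first among them in alphabetical order. FAAP24 was among those of the 14 with a peak of another gene near a gene end in both libraries.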

How the data were processed

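Each library came with 1 peak list deposited by the authors. The submitters' processing notes name the build Sscrofa11.1, and neither they nor the labels name the aligner, the peak caller, its control or the annotation tool, so these are not given in the sources used. Per the file headers, each deposited peak has a fold enrichment (linear ratio), −log10 p-values and −log10 q-values, a score equal to 10 times the −log10 q-value and not used further, and an assigned gene, class and distance to the TSS. Summit fragments and background were solved from the deposited fold and −log10 p-value, taking the fold as fragments plus 1 over background plus 1 and the p-value as the Poisson probability of more fragments. All peaks were fitted within a relative tolerance of 1e-05, and the procedure was tested on simulated data.

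The strongest promoter peak per gene was used. Summits of both libraries were measured from the TSS of the transcript assigned in replicate 1, which differed between libraries at BRCA1 and RBBP8. Gene positions and neighbours came from the RefSeq table. The members, lists and tests were chosen with earlier results of these data known. Named in full are the 12 bound members with the highest lower fold, members with a peak in 1 library or of another class, and members with a neighbour's peak. Of other repair genes, the 5 with the highest lower fold and the first 5 without a peak in alphabetical order are named. Other repair lists covered 111 genes, of which 103 were in the gene table. The alternatives were other peak filters, promoter widths, assignments, overlaps and single libraries. Tools were scipy 1.17.1, numpy 2.4.6, pandas 2.3.3, matplotlib 3.10.9 and Python 3.11.15.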

Additional observations from a re-analysis of the deposited data

How the results depend on the processing

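With peaks at or above the median fold of their library, 13 members were bound (27.1%, against 11.6% of all genes), and ATRIP, BARD1, CHEK2, RAD51C, RAD54B, RAD54L, RBBP8 and RNF8 were lost because the peaks were removed by the minimum. With 1 library left out, 45.8% to 64.6% of members had a promoter peak, and the median fold of the bound members was 5.71 to 6.25, against 5.45 and 5.85 over all bound genes. Among genes with any assigned peak, an alternative chosen after seeing the data, 60% of members were bound, against 41.1% of all such genes. The 21 bound members were the same with equal list lengths (19.2% of all genes) and with promoters of at most 1 kb (20.5%). With any assigned peak ATR and XRCC3 were added (23 members, 28.2% of all genes). Requiring a reciprocal overlap of at least 50% left 16 of the 21 members with matching peaks (76.2%, against 83.5% of all bound genes), and summits within 200 bp left 17 (81%, against 76.8%). The binomial test of the library split called 0 genes under both of its alternatives. Counting peaks near the 5′ end of each gene was not run because the gene table gives no strand. Counting either gene end, chosen after seeing the data, gave 24 members (51.1%, against 29.3% of all placed genes), adding ATR, BRCA2, PALB2, RAD51B, RMI1 and SLX4 and losing FANCG, MDC1 and RBBP8. No paired analysis was possible because there was 1 group. Peaks of median height rest on 16 and 14 fragments, so depth limits every statement on a single gene without a peak.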

Other observations

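Genes of other repair pathways ranged from 0% to 61.1% in their share with promoter peaks in both libraries. Of 18 nucleotide excision repair genes, which remove bulky lesions, 11 were bound (61.1%, 95% Wilson interval 38.6 to 79.7), against 20.8% of all genes. CETN2, a subunit of the lesion-sensing complex, had 8.33-fold and 9.05-fold, and XPA, the scaffold of the incision complex, had 7.43-fold and 7.76-fold. Of 18 base excision repair genes, 6 were bound (33.3%, 16.3 to 56.3). TDG, a thymine DNA glycosylase, had 11.2-fold and 9.88-fold, and MUTYH, an adenine DNA glycosylase, had 9.59-fold and 9.89-fold. Of 11 non-homologous end joining genes, 3 were bound (27.3%, 9.75 to 56.6). None of 6 mismatch repair genes was bound (0%, upper limit 39%). Of the nucleotide excision repair genes, 5 had no assigned peak, among them ERCC3, a helicase of TFIIH. The difference between lists was not tested.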
